A study of Mus musculus with 4 samples.

Results

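CTCF peaks at the promoters of long noncoding RNA genes were examined in the adult mouse heart. A peak belonged to the set when its summit, the position of highest signal, was no more than 1 kb from a transcription start site (TSS) annotated for a lincRNA, antisense or processed_transcript gene. It also had to lie more than 5 kb from every TSS of a protein-coding gene. On the autosomes, 681 of the 52835 peaks of the conservative list met this rule. That list holds the peaks that passed a threshold on the irreproducible discovery rate (IDR), a measure of how well the ranks of matched peaks agree between the 2 pools. The rule used positions only, so the signal and the sequence of the peaks were not part of it. The same rule leaves out 897 peaks near a noncoding TSS that also lay within 5 kb of a coding TSS.

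Chromatin bound by CTCF was sequenced from the heart tissue of female B6CASTF1/J mice aged 2 months, the first-generation hybrid of C57BL/6J and CAST/EiJ. There was no treatment, no second genotype and no other tissue. The samples were 2 pools, pool G and pool H, each made of 2 heart biosamples and each sequenced as 2 technical libraries. All 4 libraries are therefore of 1 condition, and the comparisons below are between classes of peaks. The 2 pools served as the replicates, and each pool's own thresholded list was used to see whether a pattern recurred. These 2 lists share no library, but the conservative list was made from both pools. Heart tissue holds muscle, vessel, connective tissue and blood cells, and the lists do not separate them or the 2 parental alleles. Read depth is unknown, and no sample of input DNA was analysed here. Peaks are not replicates of a condition, so no test was made across them. Intervals are 95% intervals for counting error over peaks or genes.

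CTCF is a zinc finger protein that binds DNA at a long motif and, together with cohesin, anchors chromatin loops. It is known for insulating promoters from enhancers, for its part in imprinted loci, and for binding near promoters. Long noncoding RNA genes are transcribed by RNA polymerase II, but fewer of their promoters are CpG islands than is the case for coding genes. Whether a given noncoding RNA was transcribed in these hearts was not measured.

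Sequences of some of the strongest peaks are shown first because peaks with this motif had a higher median signal. Each run is 5′ to 3′ on the strand of the motif and was read from GRCm38.p6. Capitals mark the 12 bases that match the CTCF core motif with at most 1 mismatch, with 20 bases on either side. The first 5 belong to peaks among the 10 with the highest signal, and the RNAs that start there have no role known well enough to state.
Gm41414, chr16:5306754-5306805, plus strand: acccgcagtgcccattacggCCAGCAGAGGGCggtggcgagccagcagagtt
Gm38534, chr11:88252388-88252439, plus strand: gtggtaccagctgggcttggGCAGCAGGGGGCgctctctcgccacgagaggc
Gm26841, chr2:152696926-152696977, plus strand: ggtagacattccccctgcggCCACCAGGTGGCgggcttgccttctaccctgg
Gm48284, chr9:40616545-40616596, plus strand: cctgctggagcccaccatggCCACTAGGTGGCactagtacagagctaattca
4930478P22Rik, chr5:35361982-35362033, plus strand: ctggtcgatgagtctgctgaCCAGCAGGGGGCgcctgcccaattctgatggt

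The next sequences belong to noncoding RNAs with a known role. Mir17hg is the host transcript of a growth-promoting microRNA cluster, and Meg3 is an imprinted RNA expressed from the maternal chromosome. Meg3 has 2 peaks, 1 on each side of its TSS, with cores on opposite strands.
Mir17hg, chr14:115042246-115042297, minus strand: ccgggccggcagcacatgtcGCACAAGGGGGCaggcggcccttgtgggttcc
Meg3 upstream, chr12:109542150-109542201, plus strand: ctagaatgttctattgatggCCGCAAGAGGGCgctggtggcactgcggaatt
Meg3 downstream, chr12:109543020-109543071, minus strand: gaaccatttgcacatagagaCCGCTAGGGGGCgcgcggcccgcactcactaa

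The last set shows cores inside soft-masked sequence, the part of the genome marked as repeats or low-complexity sequence. These share 1 word and much of the sequence after it, although they lie on 3 chromosomes.
Neat1, chr19:5828571-5828622, minus strand: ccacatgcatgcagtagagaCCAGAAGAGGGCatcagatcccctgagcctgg
Platr4, chr3:41492477-41492528, plus strand: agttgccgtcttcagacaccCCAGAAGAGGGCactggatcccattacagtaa
1110038B12Rik, chr17:34951215-34951266, minus strand: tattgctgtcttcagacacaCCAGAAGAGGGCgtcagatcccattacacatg

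The 681 peaks were assigned to the nearest qualifying TSS and fell on 606 genes. Of these genes 538 had 1 peak, 62 had 2, 5 had 3 and 1 had 4. There were 459 peaks at 413 lincRNA genes, which lie between coding genes, and 145 peaks at 131 antisense genes, which run opposite to another gene. The other 77 peaks were at 62 genes of the processed_transcript type, noncoding genes placed in neither class. Most of the genes had only a systematic name: 383 peaks were at genes with a Gm number and 177 at RIKEN clones. The share of a chromosome's peaks that belonged to the set ran from 0.692% on chromosome 15 (16 of 2313) to 1.93% on chromosome 17 (46 of 2383). The nearest coding TSS was a median of 30.0 kb away (quartiles 12.5 and 77.5 kb), and 127 peaks (18.6%) were more than 100 kb from any.

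Summits were denser next to noncoding start sites than in the flanks of the same genes. Within 1 kb of the start sites, and more than 5 kb from coding ones, there were 47.4 summits per Mb (exact Poisson interval 43.9 to 51.1; 681 in 14.4 Mb). From 1 to 2 kb the density was 27.6 per Mb, from 2 to 3 kb 30.5, from 3 to 4 kb 27.1 and from 4 to 5 kb 24.6. Farther than 5 kb from any noncoding TSS it was 16.1 per Mb. The first kilobase thus held 1.72 times the density of the following 4 kb as a whole (interval 1.57 to 1.89). The ratio was 1.73 in the list of either pool. How much of the sequence could be mapped by reads was not measured in either zone.

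**Figure D1:**
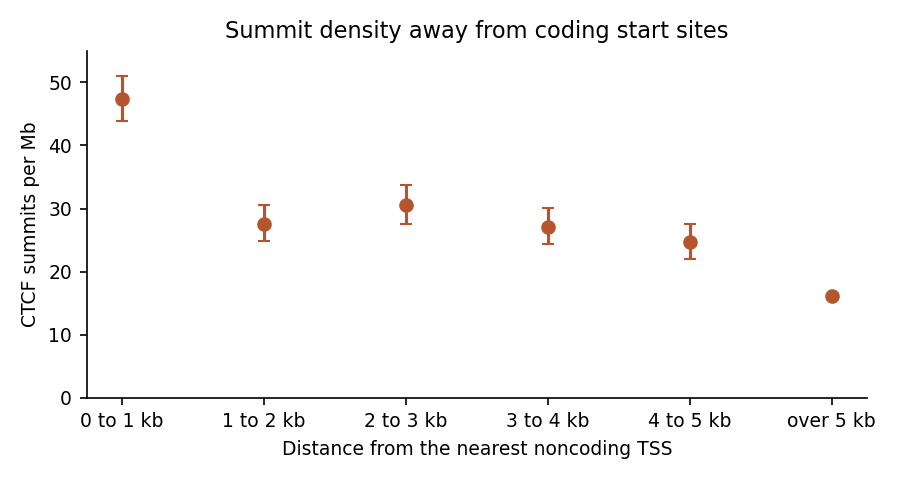
Density of CTCF summits (per Mb, linear axis) against distance from the nearest noncoding TSS, in autosomal sequence more than 5 kb from coding start sites. Points are counts divided by the length of sequence and bars are exact 95% Poisson intervals; the first kilobase stands at 47.4 and the farthest zone at 16.1 per Mb.

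Within the first kilobase the summits were placed asymmetrically about the TSS. Upstream of the TSS lay 383 of 681 summits, 56.2% (exact binomial interval 52.4 to 60.0), and 298 lay at or downstream of it. The fullest 100-bp bin was the one just upstream, with 85 summits, against 48 in the bin that starts at the TSS. The median distance was 374 bp, and 134 summits lay within 100 bp. Pool G's list gave 56.3% upstream and pool H's 57.4%. At the edge of the rule, 27 peaks lay 951 to 1000 bp from the TSS with a median signal of 256. The 11 peaks at 1001 to 1050 bp, which the rule leaves out, had a median of 295. At the other edge, 6 members lay 5001 to 5250 bp from a coding TSS (median 687) and 14 peaks just inside that limit were left out (median 347).

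**Figure D2:**
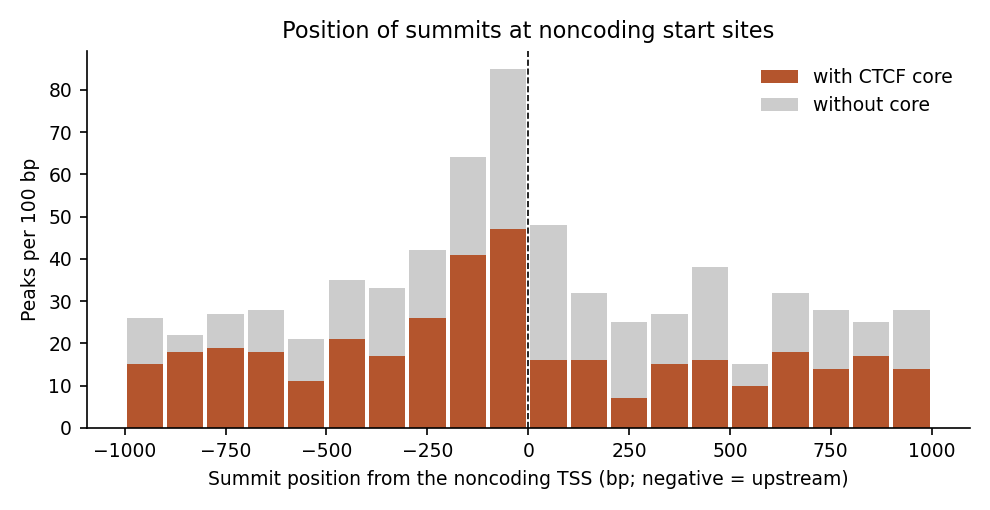
Number of noncoding promoter summits in each 100-bp bin by position from the TSS (bp, negative is upstream, dashed line at the TSS), stacked by whether the CTCF core motif lay within 100 bp of the summit. The bin just upstream holds 85 summits and the bin just downstream 48.

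Upstream summits also had a higher median signal. The signal is the peak caller's score for each peak, with no stated unit, and it is compared here only within 1 list. The median was 387 for upstream summits (interval 317 to 459) and 255 for those at or downstream of the TSS (211 to 319). These intervals barely overlap. In the 100 bp before the TSS the median was 505, and in the 100 bp after it 210. The same order was seen in pool G's list, with medians of 190 and 133, and in pool H's, with 180 and 121. Summits within 100 bp of the TSS on either side had a median of 452 (301 to 538). The median was 255 at 101 to 250 bp, 324 at 251 to 500 bp and 313 at 501 to 1000 bp, with no steady decline with distance.

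Peaks at noncoding promoters had a higher median signal than peaks at coding promoters. The 681 peaks had a median of 321 (interval 275 to 366.97, quartiles 141 and 632). The 9051 peaks within 1 kb of a coding TSS had a median of 241 (234 to 250), and the 2 intervals do not overlap. The 28962 peaks more than 5 kb from every TSS had 294 (287 to 300), which lies within the interval of the noncoding promoters. All 52835 peaks had 286. Above the third quartile of the list stood 205 of the 681 peaks, 30.1%, a difference of 5.10 percentage points from the whole list (Newcombe interval 1.76 to 8.67). Below the first quartile stood 23.3% of them. In pool G's list the medians were 165 at noncoding promoters, 127 at coding ones and 157 away from start sites, and in pool H's they were 146, 112 and 139.

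The gene types differed less clearly. The medians were 343 for lincRNA (287.7 to 408), 239 for antisense (188 to 332) and 316 for processed_transcript peaks (218 to 455), and each of these intervals overlaps both others. The 897 peaks near a noncoding TSS but within 5 kb of a coding one had a median of 229 (213 to 261), close to coding promoters. Any of them within 1 kb of a coding TSS also count as coding promoter peaks, so the groups are not separate.

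**Figure D3:**
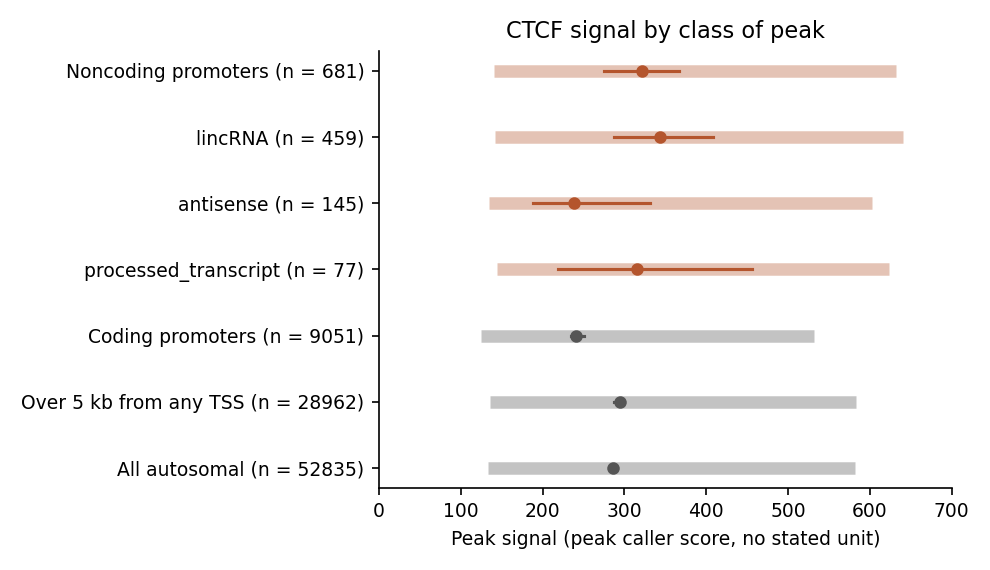
Peak signal (caller's score, linear axis) by class of peak. Points are medians, thin lines their 95% intervals and pale bars the span between the quartiles; the median of the noncoding promoters, 321, stands above the 241 of coding promoters, and the 3 gene types overlap.

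The CTCF core motif was more frequent at noncoding than at coding promoter peaks, and less frequent than at peaks away from start sites. It was searched on both strands within 100 bp of the summit, with at most 1 mismatch. It was present in 376 of 681 peaks, 55.2% (interval 51.4 to 59.0), against 65.9% of all autosomal peaks of the list. Coding promoter peaks had it in 38.9% of cases, 16.3 points fewer (Newcombe interval 12.4 to 20.1). Peaks more than 5 kb from every TSS had it in 71.8%, and here noncoding promoters were lower by 16.6 points (interval of the difference -20.4 to -12.9). Windows of the same size moved by 1 kb held the core in 6.46% of the noncoding promoter peaks. Pool G's list gave 53.4%, 37.0% and 69.7% for noncoding promoter, coding promoter and distant peaks, and pool H's gave 55.7%, 39.0% and 72.5%. The core without a mismatch was present in 162 peaks, 23.8%, against 33% of all peaks.

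Peaks with the core were stronger. Their median signal was 504 (interval 453 to 555), against 187 (153 to 211) for the 305 peaks without it. Among coding promoter peaks the same split gave 415 and 183, and among distant peaks 352 and 194. The list was split at its quartiles into 4 classes of signal. From the weakest to the strongest class, the share of noncoding promoter peaks with the core was 32.1%, 42.0%, 64.5% and 76.6%. For all peaks the 4 shares were 52.7%, 60.2%, 70.2% and 80.5%, so the gap to the whole list was widest in the weakest class. The median distance between core and summit was 7.5 bp. Upstream summits had it in 60.8% of cases and the others in 48.0%, a difference of 12.8 points (5.31 to 20.2). Among types, lincRNA peaks had it in 58.4%, antisense peaks in 53.8% and processed_transcript peaks in 39.0% (28.0 to 50.8).

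The most frequent exact core belonged to peaks of low median signal. CCAGAAGAGGGC, the word printed above for Neat1, Platr4 and 1110038B12Rik, made up 43 of the 162 exact cores, 26.5% (interval 19.9 to 34.0). Over all peaks it made up 37.7% of exact cores. Every one of the 43 copies began in soft-masked sequence, as did 99.7% of the 6572 copies in the whole list. Of the other exact cores at noncoding promoters, 19 of 119 (16.0%) did. The 43 peaks had a median signal of 173, against 657 for the 119 peaks with another exact word. Not all of the 43 were weak. A further peak of 1110038B12Rik with this word had a signal of 731, against 132 at the copy printed above. In the whole list the 2 medians were 162 and 544. In 21 of the 43 copies (48.8%, 33.3 to 64.5) the word went on with any base and then TCAGAT, as it does at Neat1 and 1110038B12Rik. Over all peaks it did so in 1995 of 6572 copies, 30.4%. The word and its continuation were picked after their counts were seen. B2 elements, short retrotransposons of rodents, are known carriers of CTCF motifs, but soft-masking does not name the repeat family.

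The next 3 words in frequency had high median signals. CCAGCAGAGGGC, the word at Gm41414, was found in 14 peaks (8.64% of exact cores, against 6.29% over all peaks) with a median signal of 628. CCACTAGGTGGC, the word at Gm48284, was found in 11 (6.79%, against 3.19%) with a median of 716. CCAGCAGGGGGC, the word at 4930478P22Rik, was found in 10 (6.17%, against 4.11%) with a median of 638. Not all rarer words had a high median: CCAGTAGAGGGC was found in 5 peaks (3.09%, against 2.50%) with a median of 119. Of these the peaks at 1700072G22Rik (626) and Gm16271 (567) were strong, and over all peaks the median of this word was 300. Among the 214 cores with 1 mismatch, the mismatch fell most often on position 12, counted from the 5′ end of the core (58 cores, 27.1%). It fell on position 3 in 42 cores and on position 1 in 37. Positions 2, 7 and 8 were mismatched in 2 cores each. The positions are not alike, since position 8 takes A or G and so has fewer ways to mismatch than a position that takes 1 base. The same counts over all peaks are not given here.

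Summits at noncoding promoters lay less often in soft-masked sequence than those of the list as a whole, but more often than those at coding promoters. This was the case for 92 of 681 summits, 13.5%, against 21.8% of the whole list, a difference of -8.33 points (Newcombe interval -10.7 to -5.53). At coding promoter peaks the share was 9.40%, and at peaks near both a noncoding and a coding TSS 6.80%. Of the start sites themselves, 77 (11.3%) were in soft-masked sequence. Their peaks had the core in 71.4% of cases, against 53.1% at the other start sites. Genes with every qualifying TSS in soft-masked sequence had a peak in 60 of 1136 cases, 5.28%, against 10.8% of the other genes. The former also had fewer start sites, a mean of 1.08 per gene against 1.52. Over all genes of the 3 types the share with a peak was 8.08% with 1 TSS and 19.3% with 3 or more. How much of the gap goes with the number of start sites was not tested.

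The core was on the transcribed strand in 207 of 376 peaks, 55.1% (49.9 to 60.2), an interval that takes in an even split. For cores upstream of the TSS the share was 58.4% (135 of 231; 51.8 to 64.9), and for cores downstream it was 49.7% (72 of 145; 41.3 to 58.1). In the 100 bp before the TSS it was 37 of 52, 71.2% (56.9 to 82.9). At coding promoters the same 3 shares were 55.9%, 49.7% and 62.6% (388 of 620). The 100-bp band was picked after the values were seen. With each pool's list it gave 35 of 50 (70.0%) and 34 of 49 (69.4%), from lists whose peaks overlap. Cores in this band include those at Gm41414, 21.5 bp before the TSS, and Gm13832, 40.5 bp before it. The core covered the TSS base itself in 7 peaks.

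Noncoding genes with a CpG-rich promoter had a CTCF peak more often than those with a CpG-poor one. A TSS was called CpG-rich when GC exceeded 50% and the observed to expected CpG ratio exceeded 0.6 in 500 bp centred on it. Of the 6331 genes of the 3 types with a TSS more than 5 kb from coding ones, 623 had a summit within 1 kb of such a TSS, 9.84% (9.12 to 10.6). A summit near the start sites of several genes counts here for each of them. CpG-rich genes had a peak in 86 of 281 cases, 30.6% (25.3 to 36.4), and CpG-poor genes in 537 of 6050, 8.88%. By type the shares were 9.46% for lincRNA, 9.50% for antisense and 15.3% (11.9 to 19.2) for processed_transcript genes. The last type has more start sites per gene, a mean of 2.66 against 1.38 for lincRNA genes. With 1 TSS the share was 8.08%, with 2 it was 13.6% and with 3 or more 19.3%.

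Coding genes had a promoter peak far more often, 7421 of 20807 or 35.7%, but not where number of start sites and CpG content were matched at the low end. Among CpG-poor genes with 1 TSS, 360 of 4746 noncoding genes (7.59%) and 246 of 3165 coding genes (7.77%) had one. The difference was -0.19 percentage points (Newcombe interval -1.41 to 1.00). Among CpG-rich genes with 1 TSS the shares were 24.3% (35 of 144) and 39.5% (490 of 1241), a difference of -15.2 points (-22.0 to -7.11). Coding genes were not required to stand apart from other genes, which the noncoding ones were.

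**Figure D4:**
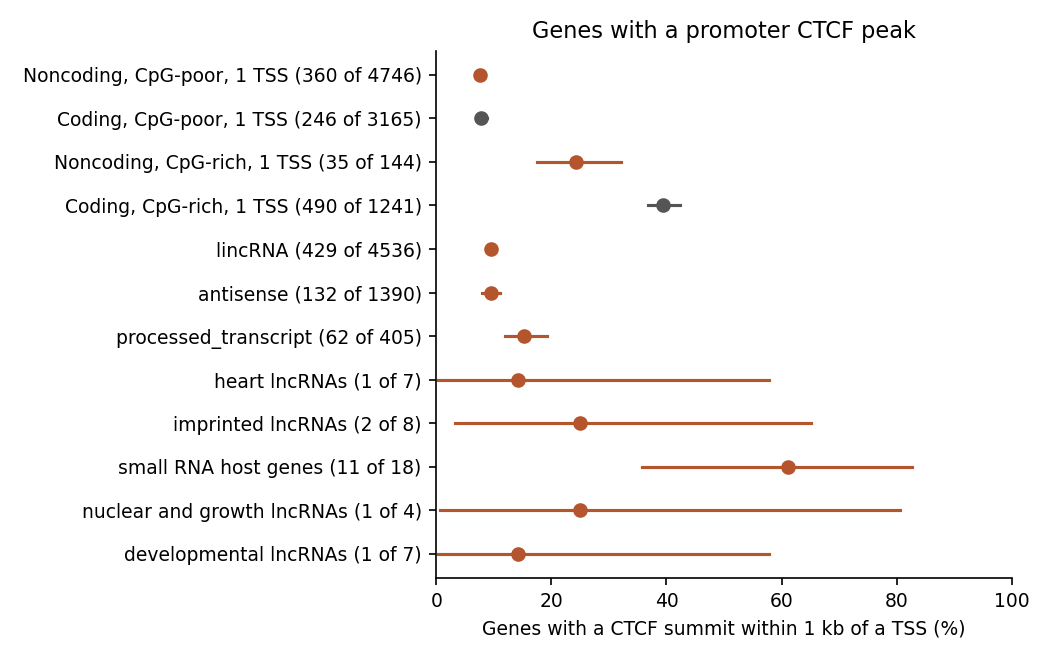
Percentage of genes with a CTCF summit within 1 kb of a TSS, by class of gene, with exact 95% binomial intervals and the counts in the labels. CpG-poor genes with 1 TSS stand at 7.59% (noncoding) and 7.77% (coding), and small RNA host genes at 61.1%.

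Counted over peaks, the nearest TSS was CpG-rich in 93 of 681 cases, 13.7% (11.2 to 16.5). The share was 32.5% for processed_transcript, 12.2% for lincRNA and 8.28% for antisense peaks. Of all qualifying noncoding start sites with a summit within 1 kb, 16.7% were CpG-rich, against 4.03% of those without. At coding genes the shares were 71.8% and 30.7%. The peaks at CpG-rich start sites were the weaker ones, with a median signal of 230 (158 to 295) against 345 (294 to 404) at CpG-poor ones, intervals that barely overlap. They had the core less often, in 43.0% against 57.1% of cases (difference -14.1 points, -24.5 to -3.22). With the core the medians were 452 and 508, and without it 151 and 189.

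The strongest of the 681 peaks was at Gm41414, a lincRNA gene on the plus strand of chromosome 16. The peak spanned chr16:5306522-5307034, with its summit 17 bp before the TSS and 50.8 kb from the nearest coding TSS, that of Eef2kmt. Its signal was 871 in the conservative list, 462 in pool G and 414 in pool H. The other 9 of the top 10 had signals between 819 and 856. They were at Gm38534, Gm31107, Gm15996, Gm26841, AC122818.2, 2310001H17Rik, Gm48284, 4930478P22Rik and Gm13832. Of the 10, 9 were upstream of their TSS (90%, interval 55.5 to 99.7), against 56.2% of the 681. The core was present in 8 of the 10 (80%, 44.4 to 97.5). In the strongest signal class 76.6% of noncoding promoter peaks had this core. The 2 without it were Gm31107 (signal 844), which was also the only 1 with a CpG-rich TSS, and AC122818.2 (825). Only AC122818.2 was in both single-pool lists, and Gm41414, Gm31107 and 2310001H17Rik were in neither, although each had a high signal in both pools. The single-pool lists miss strong peaks in general. In the strongest of the 4 signal classes, 86.3% of noncoding promoter peaks and 87.7% of all peaks were in both lists. In the class below it the shares were 100% and 99.99%.

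The strongest antisense peaks were at Gm15996 (828), Gm49595 (814) and 5031415H12Rik (803), all within the body of a coding gene. The strongest processed_transcript peaks were at Gm42109 and Ptprv (803 each) and at AC142100.3 (790). Ptprv, named for a receptor tyrosine phosphatase, has a second peak of 672, and the stronger lies just over 5 kb from the TSS of Lgr6, at the edge of the rule. A330023F24Rik on chromosome 1 had the most peaks. Its 4 signals were 698, 412, 282 and 144. Next came 5 genes with 3 peaks each, among them 1110038B12Rik and 2700038G22Rik. Peaks with a core had signals of 731 and 132 at 1110038B12Rik and of 596 and 226 at 2700038G22Rik.

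Host genes of small RNAs had promoter peaks in 11 of 18 cases, 61.1% (exact interval 35.7 to 82.7), against 9.84% of all genes of the 3 types. Most of these genes carry small nucleolar RNAs or microRNAs in their introns or exons, while Snhg7os, taken in by its name, is on the strand opposite the host Snhg7. Of the 18, 14 were CpG-rich, as were 9 of the 11 with a peak, and of all CpG-rich noncoding genes 30.6% had one. CpG-rich genes of the processed_transcript type, with a mean of 3.88 start sites, had one in 22 of 57 cases. That is 38.6% (26.0 to 52.4), an interval that overlaps the one of the host genes. How much of the gap goes with the number of start sites was not tested. The host genes had 13 peaks, of which 5 (38.5%, interval 13.9 to 68.4) were at or above the median of the whole list. This interval takes in the 52.9% of the 681 peaks. Of the 13, 3 had the core (23.1%, 5.04 to 53.8), against 55.2% of the 681 and 43.0% of those at CpG-rich start sites. The strongest of the 13 was at Snhg15, chr11:6528658-6529231, 146 bp before the TSS, with a signal of 779 (409.3 in pool G, 366.9 in pool H) and no core. Snhg17 had 738 (401 and 337), 27 bp before the TSS, and a second peak of 264. Mir17hg had 699 (342 and 358), with its summit 612 bp before the TSS at the core printed above. Snhg12 had 541 (291 and 247).

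The remaining host genes had weaker peaks. The signal was 295 at Snhg5, 227 at Snhg7os, 197 at Mir99ahg, 183 at Mir670hg, 177 and 153 at Snhg8, 117 at Dleu2 and 73.2 at Snhg20. The Snhg20 peak was in neither single-pool list, with 43.7 in pool G and 30.6 in pool H. Among the host genes without a peak were Snhg6, Mir133a-1hg, which carries a muscle microRNA, and Mir155hg.

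Of the imprinted noncoding RNAs, 2 of 8 had a promoter peak, 25% (interval 3.19 to 65.1), which takes in the 9.84% of all genes of the 3 types. Meg3 had a signal of 183 at chr12:109541992-109542237, 115 bp before its TSS (112 in pool G, 71.4 in pool H). Its second peak, at chr12:109542934-109543202, had 186, 794 bp into the gene (93.6 and 93.5). The cores of both peaks are printed above. Airn, the antisense RNA that silences Igf2r on the paternal chromosome, had a peak of 134 at chr17:12741298-12741487. Its summit lay 5 bp after the TSS, inside the Igf2r gene, and no core was found in this window. It was in pool H's list (66.8) but not in pool G's (65.6). No summit lay within 1 kb of a qualifying TSS of H19, Kcnq1ot1 or Rian. All 3 peaks were below the list's median of 286.

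Of noncoding RNAs studied in the heart, 1 of 7 qualifying genes had a promoter peak, 14.3% (interval 0.361 to 57.9), which takes in the 9.84% of all genes of the 3 types. Of 15 listed, 7 were not found in the annotation by these names and Mhrt starts near a coding TSS. Of the 7 left, Hand2os1 alone had a peak. Hand2os1 runs opposite to Hand2, a transcription factor gene of heart development. Its peak, chr8:57314254-57314602, had a signal of 455 (251 in pool G, 207 in pool H), 212 bp after a TSS and 6.55 kb from the TSS of Hand2. That TSS, at 57314648, is an internal start of this minus-strand gene, whose outermost start is at 57324233. It lies in soft-masked sequence, and no core was found at the peak. The 6 without a peak include Carmn, a muscle regulator, Bvht and Miat.

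Near Hand2 there were 2 further peaks. At Gm34030 the signal was 282, with a core, 12.5 kb from the TSS of Hand2. At 5033428I22Rik it was 118, without a core, at 20.0 kb. Of 46 heart genes listed, Tbx3 and Kcnq1 were the others that were the nearest coding gene of a noncoding promoter peak. Gm28821, an antisense gene within Kcnq1, a potassium channel gene, had a peak of 118 (79.0 in pool G, 40.5 in pool H).

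Tbx3os2 starts near Tbx3, a gene that shapes the conduction system. Its peak, chr5:119691088-119691569, had its summit 11.1 kb from the TSS of Tbx3. It had a signal of 689 (363 in pool G, 324 in pool H), 112 bp before the TSS. The core matched without a mismatch and lay on the transcribed strand. The 158 bases from the core into the start of the RNA are shown because core and TSS lie close together. Capitals mark the core and base 138 of the run is the TSS.
Tbx3os2, chr5:119691198-119691355, minus strand: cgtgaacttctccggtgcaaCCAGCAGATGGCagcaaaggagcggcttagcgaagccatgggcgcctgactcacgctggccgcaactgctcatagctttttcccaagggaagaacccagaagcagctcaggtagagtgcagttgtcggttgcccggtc

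Among nuclear and growth-related RNAs, Neat1 was the only 1 of 4 with a peak, 25% (interval 0.631 to 80.6), which takes in the 9.84% of all genes of the 3 types. Neat1 is the scaffold of nuclear paraspeckles. The peak, chr19:5828490-5828695, had a signal of 125 (82.03 in pool G, 50.42 in pool H), 571 bp before the TSS. Its core is the soft-masked word printed above. Malat1, its abundant neighbour, Pvt1 and Trp53cor1 had none. Among developmental RNAs 1 of 7 had a peak, 14.3% (0.361 to 57.9), an interval that again takes in 9.84%. It was Sox2ot, which overlaps the pluripotency gene Sox2, with 419 (228 and 190) 898 bp after a TSS. Hotair, Halr1 and Rmst had none.

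The measures of reproducibility were close to those of the whole list. IDR was 0.01 or lower in 97.2% of the noncoding promoter peaks, against 95.3% of all peaks. Pool G's list overlapped 93.5% of them, against 91.3% of all, and pool H's 90.3%, against 89.5%. Of the noncoding promoter peaks 86.3% overlapped both lists, against 85.2% of all. Both shares were lower in the strongest signal class than in the class below it, as given above. Pool G's signal was a median of 1.21 times pool H's at noncoding promoters and 1.23 times over all peaks.

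In 8 peaks (1.17%, against 1.1% of all) the ratio was more than 2-fold off the median of all peaks, and all 8 had another summit within 250 bp. This was so for 55 of the 681 peaks. In the direction of pool G the farthest were at Gm11205 (139 in pool G, 6.18 in pool H), Gm48847 (90.3 and 31.3) and Gm15651 (96.9 and 35.3). In the direction of pool H they were at AC155941.1 (13.3 and 343), Gm33195 (30.4 and 375) and Gm17767 (37.2 and 379). At Gm33195 and Gm17767 the main summit has the same pool H value as the second summit. The pool values of a second summit are thus not always a measurement of its own.

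**Figure D5:**
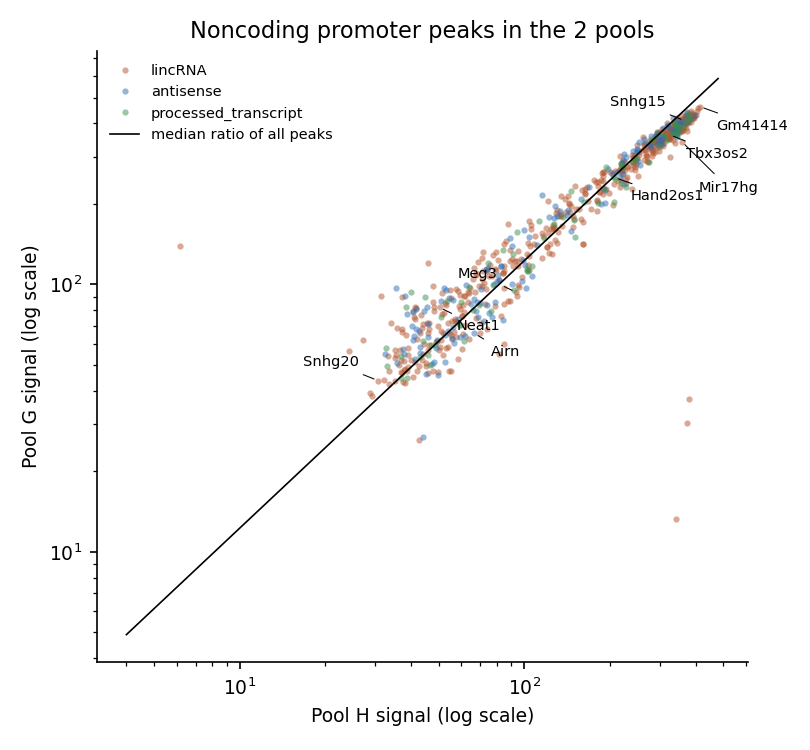
Signal in pool G against pool H (both log axes) for the 681 noncoding promoter peaks, coloured by gene type, with the line of the median ratio of all autosomal peaks. Most peaks follow the line, and the 8 peaks more than 2-fold off it, such as those at Gm11205 and Gm33195, have another summit within 250 bp.

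The position in other genes followed the gene types. The summit lay in the body of a coding gene in 19.1% of the peaks, against 54.7% of all peaks, which the distance from coding start sites in the rule partly sets. The share was 5.45% for lincRNA peaks, 64.1% for antisense and 15.6% for processed_transcript peaks. Another summit lay within 10 kb of 409 of the 681 (60.1%), against 58.6% of all peaks.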

How the data were processed

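CTCF ChIP-seq of heart was analysed from peak lists that the authors deposited (build mm10 per the labels). The sources used here name neither an aligner nor a peak caller. Each record holds the caller's signal as a score without a stated unit and a second score that encodes IDR, both as deposited by the authors. On the latter scale 540 is an IDR of 0.05 and 830 one of 0.01. The conservative list (54309 records) was the main list. A second list of both pools and the list of each pool were alternatives, and the pool signals of a peak came from the deposited list matched between pools. Which list belongs to which pool was read from the deposited readme texts. An interval can hold several summits, and 34 members shared theirs with another summit.

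Every transcript start in GENCODE M21 counted as a TSS, and the genome was GRCm38.p6 with its soft-masking. Overlap meant at least 1 shared base. Binomial intervals are Clopper-Pearson, differences Newcombe, densities exact Poisson, and medians use order statistics, at 95%. They cover counting error only, since read depth is unknown. The CTCF core motif has 12 positions, several of which take more than 1 base, and position 5 takes any. The work used scipy 1.17.1 for intervals, pandas 2.3.3 and numpy 2.4.6 for tables and matplotlib 3.10.9 for plots, under Python 3.11.15. The motif search and the TSS assignment were tested on simulated data.

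Named peaks were the 10 strongest, the 3 strongest of each gene type, those of fixed lists of noncoding RNAs with a peak and up to 3 genes per list without, the 3 farthest from the median pool ratio in each direction, the 3 genes with most peaks, and those whose nearest coding gene was on a list of 46 heart genes. The members and lists were chosen with earlier results of these data known. Platr4 was added to show the soft-masked word. Alternatives changed the list, the IDR threshold, the TSS definition, the distances, the overlap rule, the core and its window, the CpG window and the signal.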

Additional observations from a re-analysis of the deposited data

How the results depend on the processing

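Of 80 alternative values for 7 results, 62 were counted as unmoved and 18 as moved. For results with an interval, unmoved means that the alternative stayed within it. The number of peaks has no interval, so its labels rest on none. Its 7 values counted as unmoved ran from 556 to 801, and its 4 counted as moved lay outside that range. The ratio of summit density, 1.72, moved in none of its 7 alternatives. None of these 7 changed the promoter distance or used the overlap rule, so how the ratio depends on those was not tested. With a promoter of 500 bp there were 429 peaks and 6.49% of genes had one. With 2 kb there were 1055 peaks, 14.6% of genes and the core in 59.6%. The second list gave 11.0% of genes and a limit of 10 kb from coding start sites 8.99%. Requiring the interval to cover the TSS left 215 peaks and 3.22% of genes. Among these the median signal was 1.71 times that of the list, against 1.12 before, 67.8% of cores were on the transcribed strand and 19.5% of start sites were CpG-rich. With 1 TSS per gene, 17.6% were CpG-rich. With the strongest peak of each gene the signal ratio was 1.34. Peaks at or above the list's median numbered 360 and 71.4% had the core. Without a mismatch 23.8% had it. Without the peaks whose core is soft-masked 48.9% had it, an alternative chosen after seeing the data. That alternative removes only peaks that have the core, so the share could only fall, and nothing is concluded from its move.

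With the list of 1 pool in place of the conservative list, the count ran from 634 to 691, the share of genes from 9.15% to 9.75% and the core from 53.4% to 55.7%. No paired analysis was possible because the results come from no test and each list was made from a pool or from both. Unknown depth limits all absent peaks: a gene without one may have had too few reads. A list can also lack strong peaks. The second list held 90.7% of the noncoding promoter peaks of the strongest signal class and 100% of those in the class below. Whether the conservative list lacks such peaks was not tested.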
